A study of Mus musculus with 14 samples.

Results

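The 8 genes described here encode proteins that hold back mTOR complex 1 (mTORC1) under stress: Ddit4 and Ddit4l (the REDD family), the sestrins Sesn1, Sesn2 and Sesn3, the mTOR-binding inhibitor Deptor, and Tsc1 and Tsc2. They were chosen by name, with earlier results of these data known, and all 8 were found among the 52636 genes measured. The data are bulk RNA sequencing of 14 libraries of tMEF cells, which are transformed mouse embryonic fibroblasts. According to the labels, in all of these cells the mouse telomere protein TRF1 had been exchanged for naked mole rat (NMR) TRF1, either wild type or mutated. The 3 substitutions (Glu69Lys, Val70Ala and Ala75Thr) define the GLAD mutant and Ala105Thr alone the TIN mutant, while the double mutant combines all 4. Each of the 3 mutants was grown in normoxia, meaning atmospheric oxygen, and in hypoxia at 1% oxygen. Wild-type NMR TRF1 was used here in normoxia only. Each of the 7 groups had 2 libraries, A and B, and no label states that the 2 were grown separately. The spread behind each p-value comes from the gaps between libraries A and B, pooled over the 7 groups. It is drawn toward the spread of other genes of similar level, and it may be technical only. Each genotype may be a single line, so that line and substitution cannot be told apart. The deposited names of the wild-type libraries follow another scheme and contain the word mouse, while their titles name NMR TRF1. The titles are followed here, but whether these libraries carry NMR or mouse TRF1 was not tested. Every comparison with wild type carries this doubt. No label gives a batch, and a batch of these libraries could not be told apart from their genotype.

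mTORC1 is the protein kinase complex that couples growth to nutrients, energy and oxygen, by driving ribosome and protein synthesis and holding back autophagy. Low oxygen, DNA damage and amino acid shortage reach it through the inhibitors listed above: REDD proteins act through the TSC complex, which switches off the small GTPase Rheb that activates mTORC1, while sestrins bind the GATOR2 complex and so act on the Rag GTPases that bring mTORC1 to the lysosome. DEPTOR binds the mTOR kinase directly.

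Library totals estimated from the steps between low values ranged from 11923569 to 15031640 reads, and levels are given in CPM, which are read counts brought to a common library total, after scaling with TMM factors (trimmed mean of M values). Terf1, which encodes TRF1, was read at 87.0 to 186 CPM in all 14 libraries, and a count per gene cannot separate the mouse from the NMR sequence. All 5 genes listed to check the hypoxia label (Car9, Bnip3, Vegfa, Slc2a1 and Pgk1) rose in each mutant, and Car9, a carbonic anhydrase, rose by 4.16 in GLAD, 5.68 in TIN and 3.16 in the double mutant on the log2 scale. In normoxia all 5 were higher in the double mutant than in wild type (median 0.85) and than in TIN (0.84), and all 5 had a smaller hypoxia effect in the double mutant than in GLAD (median −0.62). The 10 fibroblast markers summed to 7435 to 15496 CPM, led by Fn1, Vim and Col1a1, although Thy1 was at most 0.200 CPM in any library. The 7 epithelial markers summed to 1.65 to 9.24 CPM in normoxia and to 17.1 to 62.9 CPM in hypoxia, mostly from Krt19, while Epcam and Cdh1 were at most 0.5 CPM in any library. The 5 myeloid markers summed to 24.0 to 44.1 CPM in normoxia and to 55.6 to 68.8 CPM in hypoxia, from Cd68 and Csf1r, while Ptprc, Adgre1 and Itgam were at most 0.200 CPM. Of these markers, 2 of 7 epithelial and 2 of 5 myeloid ones passed the filter on low values, and all of those rose on average in hypoxia. In each normoxia library 6 or 7 of the 7 epithelial markers lay under 1 CPM. A marker that passes the filter through hypoxia libraries alone is chosen for being higher there, so the epithelial count is a description and not a test. The 5 muscle markers summed to 1.20 to 2.40 CPM in normoxia and to 2.75 to 6.50 CPM in hypoxia, with Myod1 and Myog at most 0.200 CPM. Of the 9 fibroblast markers that passed the filter, 1 rose and 6 fell on average. Among the normoxia groups the fibroblast sum was 14999 and 15496 CPM in wild type, 9592 and 9852 in GLAD, 7481 and 7435 in TIN, and 8628 and 9595 in the double mutant. The 4 adipocyte markers, nearly all from Fabp4, summed to 60.8 and 60.5 CPM in GLAD against 12.8 and 19.3 in wild type, 12.4 and 13.4 in TIN, and 33.2 and 39.9 in the double mutant, with Adipoq at most 0.1 CPM. The 5 endothelial markers, mostly Tek, summed to 14.9 and 14.0 CPM in GLAD and to 1.50 to 4.25 CPM in the other normoxia groups. The 5 neural markers summed to 444 and 424 CPM in GLAD and to 241 and 208 in wild type. These shifts lie beside every hypoxia, wild-type and between-mutant result below, and their part in the member results was not tested. In bulk RNA, fewer cells of a type and less RNA per cell cannot be told apart.

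Ddit4 had the largest hypoxia effect of the members, rising in all 3 mutants, and Ddit4l had the largest range over the libraries. Sesn2 rose in TIN and the double mutant, whereas Deptor fell in all 3. Sesn1 and Sesn3 fell in TIN and the double mutant, and Tsc1 and Tsc2 moved in opposite directions in the double mutant. Over the 14 libraries the ratio of the highest to the lowest level was 88.6 for Ddit4l, whose lowest library held 2 reads, 15.0 for Ddit4, 4.68 for Deptor and 3.93 for Sesn2. It was 1.96 to 2.16 for Sesn1, Sesn3, Tsc1 and Tsc2. Per kilobase of exon, the median level was highest for Ddit4 (39.1 CPM per kb), followed by Sesn2 (20.7) and Sesn1 (13.1). Tsc2 (9.72), Tsc1 (7.61), Sesn3 (6.89) and Deptor (6.23) lay close together, and Ddit4l was far lower (0.187). All 8 passed the filter of 1 CPM in 2 libraries, and Ddit4l passed through its GLAD libraries alone. Its tests are therefore given from the fit with no filter on low values, and counts of members are given over the other 7.

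**Figure D1:**
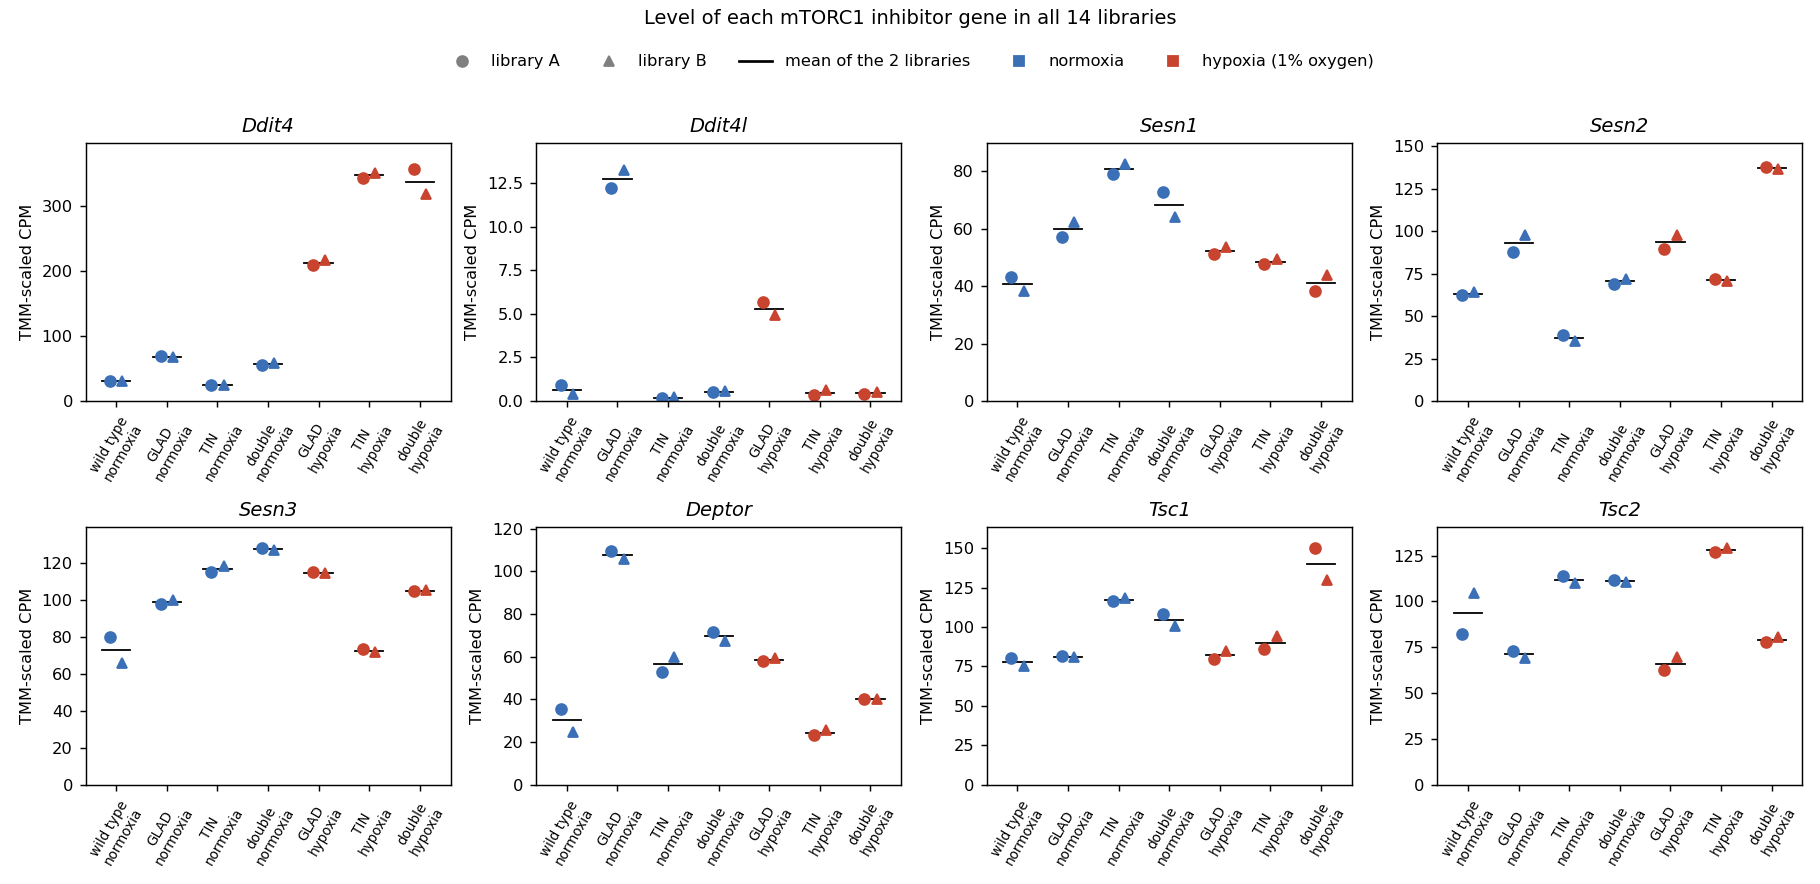
TMM-scaled CPM (linear axis from 0, one scale per gene) of the 8 genes in the 14 libraries; circles are library A, triangles library B, bars the mean of the 2, blue normoxia and red hypoxia. The 6 hypoxia libraries of Ddit4 sit between 209 and 358 CPM, above all 8 normoxia libraries, which reach 69.0 CPM at most.

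Ddit4 encodes REDD1, which is known as a target of hypoxia-inducible factors and of the integrated stress response. The gene (ENSMUSG00000020108) lies on the minus strand at chr10:59949669-59951834 of GRCm38. Its promoter is shown because Ddit4 rose most in hypoxia among the members. It is the 250 bases before the RefSeq start, chr10:59951771-59952020 (GRCm38.p6, minus strand, 5′ to 3′), with matches to the hypoxia response cores ACGTG and GCGTG in capitals.
Ddit4: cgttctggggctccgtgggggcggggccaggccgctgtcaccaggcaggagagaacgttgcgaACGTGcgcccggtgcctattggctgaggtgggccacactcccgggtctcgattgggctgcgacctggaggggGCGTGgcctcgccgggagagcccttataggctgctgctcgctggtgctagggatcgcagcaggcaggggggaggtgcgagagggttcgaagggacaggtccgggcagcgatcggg
The ACGTG match lies 187 to 183 bases before the start and the GCGTG match 115 to 111 bases before it. On either strand ACGTG occurs in 16.65% and GCGTG in 28.35% of the 32536 distinct mouse promoter windows of this length, so each match alone is common.

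For libraries A and B in turn, the normoxia level of Ddit4 was 30.2 and 31.2 CPM in wild type, 69.0 and 68.2 CPM in GLAD, 25.0 and 23.9 CPM in TIN, and 55.5 and 59.3 CPM in the double mutant. These 4 groups did not overlap, with TIN lowest and GLAD highest. In hypoxia its level was 209 and 218 CPM in GLAD, 343 and 352 CPM in TIN, and 358 and 318 CPM in the double mutant. The GLAD libraries were the lowest of the hypoxia libraries, and those of TIN and the double mutant overlapped. The genotype that was lowest in normoxia was thus among the highest in hypoxia. Ddit4 rose 14.0-fold in TIN (log2 difference 3.80 ± 0.08 SE, limma, adjusted p = 7.2e-17). It rose 5.84-fold in the double mutant (2.55 ± 0.08, 1.8e-14) and 3.10-fold in GLAD (1.63 ± 0.08, 6.4e-12). The hypoxia effect in TIN exceeded that in GLAD by 2.17 ± 0.11 (log2, adjusted p = 2.5e-10), and the effect in the double mutant lay between them. It was 0.92 ± 0.11 above GLAD (1.9e-05) and 1.26 ± 0.11 below TIN (1.0e-07). Against wild type in normoxia, Ddit4 was higher in GLAD by 1.15 ± 0.08 (7.5e-10) and in the double mutant by 0.89 ± 0.08 (1.6e-08), and lower in TIN, having dropped by 0.33 ± 0.08 (0.0011). The lower level in TIN was not called when only the compared groups were fitted (adjusted p = 0.071), nor with each library's trend on transcript length and GC content removed (a drop of 0.11, 0.21).

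Ddit4l encodes REDD2, the second REDD protein, which is best known from skeletal muscle. The gene (ENSMUSG00000046818, chr3:137621612-137628333, plus strand, GRCm38) was read at very low levels outside the GLAD mutant. By the nearest whole read, in normoxia it had 188 and 204 reads in the GLAD libraries A and B, against 11 and 6 in wild type, 2 and 3 in TIN, and 7 and 7 in the double mutant. In hypoxia it had 85 and 63 reads in GLAD, 4 and 8 in TIN, and 5 and 6 in the double mutant. All 4 GLAD libraries lay above the other 10, and the GLAD libraries in hypoxia lay below those in normoxia. In TMM-scaled CPM the GLAD libraries held 12.2 and 13.3 in normoxia and 5.66 and 4.93 in hypoxia. The other 10 held 0.150 to 0.907 CPM, where 3 reads, the limit that a count of 0 allows, correspond to 0.200 to 0.252 CPM.

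Summed over the pair of libraries, the unscaled level of GLAD in normoxia was 13.1 CPM (95% exact Poisson interval 11.9 to 14.5) and that of TIN 0.187 CPM (0.0607 to 0.436), a ratio of 70.2 with an exact interval of 29.8 to 217. The ratio of GLAD to wild type in normoxia was 20.4 (12.6 to 35.4), and that of GLAD to TIN in hypoxia was 11.6 (6.42 to 22.9). These intervals cover counting error only. In the limma fit, where the 0.5 CPM pseudocount sets the size of differences at such levels, run with no filter on low values, Ddit4l was higher in GLAD than in wild type by 3.55 (log2, adjusted p = 2.6e-06). It fell by 1.20 in GLAD under hypoxia (0.0043), the opposite direction to Ddit4 in the same libraries. The log2 change was 0.48 in TIN (adjusted p = 0.20) and −0.12 in the double mutant (0.85). With the filter and a pseudocount of 0.1 CPM the value for TIN was 0.94 and was called (0.038). The hypoxia effect in TIN, which rests on 2 to 8 reads per library, exceeded that in GLAD by 1.67 (0.010). The difference of 1.07 between the double mutant and GLAD did not pass without the filter (0.11), although it did with it (0.036). The lower level in TIN than in wild type in normoxia was a drop of 0.70 (0.050 without the filter and not called, 0.015 with it), and 0.27 with the filter and a pseudocount of 2 CPM (0.059).

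Sesn2 encodes sestrin 2, a leucine-binding inhibitor of GATOR2 and a known target of ATF4, NRF2 and p53. The gene (ENSMUSG00000028893) lies on the minus strand at chr4:132492032-132510501 of GRCm38. Its promoter, chr4:132510457-132510706 (RefSeq, GRCm38.p6, minus strand, 250 bases before the start, 5′ to 3′), is shown beside that of Ddit4 because both genes rose in TIN and the double mutant. It has no capitals, since none of the motifs searched is in this window.
Sesn2: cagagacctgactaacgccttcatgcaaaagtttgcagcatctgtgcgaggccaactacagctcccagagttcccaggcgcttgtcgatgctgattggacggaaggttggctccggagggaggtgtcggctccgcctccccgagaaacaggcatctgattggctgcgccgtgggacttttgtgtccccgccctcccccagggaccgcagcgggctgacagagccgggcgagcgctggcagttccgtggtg
On both strands the search covered the pair of hypoxia response cores and the E-box CACGTG. The E-box contains the first of those cores and occurs in 6.036% of promoters. The search also covered the ATF4 composite element TGATGNAA (3.396%), the FOXO element GTAAACA (3.172%) and the 10-base p53 half-site (7.124%). No match says only that these letters are not in these 250 bases.

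In normoxia Sesn2 stood at 62.2 and 64.1 CPM in wild type, 87.7 and 97.7 CPM in GLAD, 38.8 and 35.1 CPM in TIN, and 69.1 and 72.0 CPM in the double mutant. TIN was again the lowest and GLAD the highest, with no overlap between these 4 groups. Its hypoxia level was 89.6 and 97.4 CPM in GLAD, 72.0 and 70.5 CPM in TIN, and 138 and 136 CPM in the double mutant. The GLAD libraries overlapped between the oxygen levels, and the TIN libraries in hypoxia overlapped those of the double mutant in normoxia. Sesn2 rose 1.92-fold in TIN (log2 0.94 ± 0.08, adjusted p = 2.7e-08) and 1.94-fold in the double mutant (0.95 ± 0.08, 1.5e-08). In GLAD the log2 change was 0.01 ± 0.08 (0.91). Both differences from GLAD were called, at 0.93 ± 0.11 for TIN (1.5e-05) and 0.94 ± 0.11 for the double mutant (2.7e-05). The effect in the double mutant differed from that in TIN by 0.01 ± 0.11 (0.94). Against wild type in normoxia, Sesn2 was higher in GLAD by 0.55 ± 0.08 (1.8e-05) and lower in TIN, by a drop of 0.77 ± 0.08 (1.9e-07). The double mutant was at 0.16 ± 0.08 (0.10), a value that passed when CPM were used as deposited (0.20, 0.031) or when the trends on length and GC content were removed (0.20, 0.012).

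Sesn1 encodes sestrin 1, first described as a p53-responsive gene. It lies on the plus strand at chr10:41809935-41908424 of GRCm38 (ENSMUSG00000038332) and has a pair of RefSeq starts. The inner one, chr10:41887189-41887438 (GRCm38.p6, plus strand, 250 bases before the start, 5′ to 3′), is shown because it holds GCGTG cores and a p53 half-site, in capitals.
Sesn1: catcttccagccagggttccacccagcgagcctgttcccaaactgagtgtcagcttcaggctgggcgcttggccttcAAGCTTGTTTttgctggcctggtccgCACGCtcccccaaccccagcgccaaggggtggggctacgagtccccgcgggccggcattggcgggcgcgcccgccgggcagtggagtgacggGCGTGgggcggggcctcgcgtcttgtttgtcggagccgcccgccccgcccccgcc
The GCGTG core reads CACGC, its reverse complement, 147 to 143 bases before the start and GCGTG 55 to 51 bases before it. The p53 half-site lies 173 to 164 bases before the start. The outer Sesn1 start had no match to any motif searched. Of the 7 members with a promoter in the table, Ddit4, Ddit4l, Sesn1, Tsc1 and Tsc2 had a GCGTG match and Ddit4 alone had an ACGTG match. A p53 half-site was matched in Sesn1 and, 90 to 81 bases before the start, in Ddit4l. On either strand GCGTG occurs in 28.35%, ACGTG in 16.65% and the p53 half-site in 7.124% of all promoter windows searched. Any part of these letters in the changes of the members was not tested.

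Sesn1 in normoxia stood at 43.2 and 38.3 CPM in wild type, 57.2 and 62.4 CPM in GLAD, 78.9 and 82.4 CPM in TIN, and 72.7 and 64.2 CPM in the double mutant. All 6 mutant libraries lay above the wild-type ones, with TIN highest. Its hypoxia level was 51.1 and 53.6 CPM in GLAD, 47.8 and 49.3 CPM in TIN, and 38.2 and 43.7 CPM in the double mutant. All 6 hypoxia libraries lay below all 6 normoxia libraries of the mutants. Sesn1 fell by 0.73 ± 0.09 in TIN (log2, adjusted p = 4.0e-06) and by 0.73 ± 0.09 in the double mutant (2.8e-06). In GLAD the change was −0.19 ± 0.09 (0.11). It passed when only the compared groups were fitted (0.029) and with the trends on length and GC content removed (−0.25, 0.020). It also passed when either wild-type library was left out of the fit. The fall was larger than in GLAD by 0.54 ± 0.13 in TIN (0.0048) and by 0.54 ± 0.13 in the double mutant (0.0096). The latter was not called without GLAD library A of normoxia, double-mutant library A of normoxia or double-mutant library A of hypoxia, at adjusted p of 0.059, 0.067 and 0.057. Against wild type in normoxia Sesn1 was higher by 0.55 ± 0.09 in GLAD (8.9e-05), 0.98 ± 0.09 in TIN (5.6e-08) and 0.74 ± 0.09 in the double mutant (2.9e-06).

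Sesn3 encodes sestrin 3, a known FOXO target. The gene (ENSMUSG00000032009) lies at chr9:14275067-14333101 on the plus strand of GRCm38. The normoxia level of Sesn3 was 80.1 and 65.7 CPM in wild type, 97.9 and 99.9 CPM in GLAD, 115.5 and 119 CPM in TIN, and 129 and 127 CPM in the double mutant. The wild-type pair was the lowest and the most spread. Its hypoxia level was 115.1 and 114.9 CPM in GLAD, 73.3 and 71.9 CPM in TIN, and 104.9 and 105 CPM in the double mutant. The TIN libraries lay within the range of wild type in normoxia, and the GLAD libraries were the highest of the hypoxia libraries. Sesn3 fell by 0.69 ± 0.08 in TIN (log2, adjusted p = 1.5e-06) and by 0.28 ± 0.08 in the double mutant (0.0067). In GLAD it rose by 0.22 ± 0.08 (0.036), or by 0.20 to 0.23 in leave-one-out fits. The call was lost without any single GLAD library and without either TIN hypoxia library. It was also lost with no filter on low values (0.070), with CPM as deposited (0.18, 0.082) and without the variance trend (0.076). With the trends on length and GC content removed it was lost as well (0.08, 0.26). The hypoxia effect was lower than in GLAD by 0.90 ± 0.12 in TIN (2.1e-05) and by 0.50 ± 0.12 in the double mutant (0.0067). It differed between the double mutant and TIN by 0.40 ± 0.12 (0.0090), and that difference was −0.026 with the trends on length and GC content removed. In that setting the fall in TIN was 0.33 and its difference from GLAD −0.40, both still called. Against wild type, Sesn3 was higher by 0.44 ± 0.08 in GLAD (1.8e-04), 0.69 ± 0.08 in TIN (8.9e-07) and 0.81 ± 0.08 in the double mutant (1.5e-07). With the length and GC trends removed the value was 0.12 for GLAD (0.073) and 0.49 for the double mutant.

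The sestrin genes therefore changed their proportions. Of the summed sestrin CPM per kilobase of exon, Sesn2 made up 28.9% and 26.2% in the TIN libraries of normoxia and 55.2% and 54.3% in those of hypoxia. In the double mutant the Sesn2 share was 42.7% and 45.9% in normoxia and 70.7% and 68.7% in hypoxia. In GLAD it was 54.9% and 55.9% in normoxia and 55.9% and 57.2% in hypoxia, and in wild type 52.6% and 57.0%. Sesn1 was the largest of the 3 per length in TIN in normoxia, at 51.4% and 53.7%, and Sesn2 was the largest in the other 6 groups. Sesn3 made up 12.1% to 20.2% of the sum in every library. These shares depend on the exon lengths, which cover all annotated exons of a gene. In mean CPM not divided by length, Sesn3 was below Sesn2 in the double mutant in hypoxia (105 against 137). It was above Sesn2 in every other group, narrowly so in TIN in hypoxia (72.6 against 71.2).

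**Figure D2:**
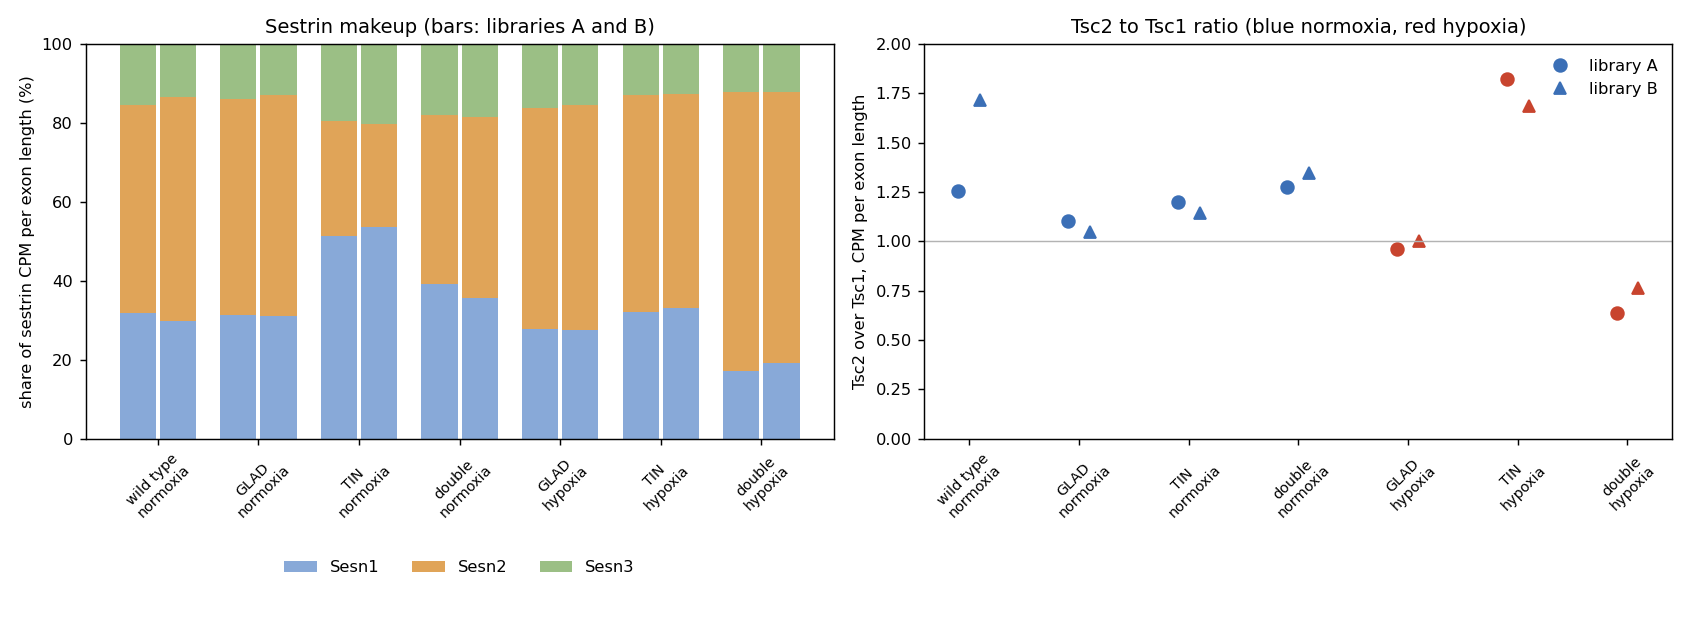
Left, the share (%) of Sesn1, Sesn2 and Sesn3 in their summed CPM per exon length, 1 bar per library; right, the ratio of Tsc2 to Tsc1 in CPM per exon length, 1 point per library, with a line at 1. The Sesn2 share runs from 26.2% (TIN in normoxia) to 70.7% (double mutant in hypoxia), and the Tsc2 to Tsc1 ratio from 0.636 (double mutant in hypoxia) to 1.82 (TIN in hypoxia).

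Deptor encodes DEPTOR, which binds mTOR in both of its complexes. The gene (ENSMUSG00000022419) lies at chr15:55112317-55259271 on the plus strand of GRCm38. Its exons overlap the antisense gene Gm9920 over 303 bases (3.41% of their length), and the strand setting of the counts is not given in the sources used here, so reads in that overlap cannot be told apart. In normoxia Deptor stood at 35.7 and 24.7 CPM in wild type, 109 and 106 CPM in GLAD, 52.9 and 59.9 CPM in TIN, and 71.6 and 67.6 CPM in the double mutant. Every mutant library lay above the wild-type pair, and GLAD was the highest. Its hypoxia level was 57.7 and 59.2 CPM in GLAD, 23.4 and 25.4 CPM in TIN, and 40.4 and 39.9 CPM in the double mutant. The order GLAD, double mutant, TIN was the same at both oxygen levels, and TIN in hypoxia overlapped wild type in normoxia.

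Deptor fell in hypoxia by 0.87 ± 0.12 in GLAD (log2, adjusted p = 1.2e-05), 1.19 ± 0.12 in TIN (2.5e-07) and 0.78 ± 0.12 in the double mutant (2.5e-05). It was the only member called lower in all 3 mutants. Sesn1 also had a negative value in all 3, of which that in GLAD was not called (−0.19, 0.11). No difference of its hypoxia effect between mutants was called, with −0.32 ± 0.17 for TIN minus GLAD (0.16), 0.09 ± 0.17 for the double mutant minus GLAD (0.79) and 0.41 ± 0.17 for the double mutant minus TIN (0.066). The wild-type pair had the largest gap between libraries for this gene, 0.52 on the log2 scale. Without wild-type library A the first and last of these were called (adjusted p = 0.019 and 0.0028), and likewise without library B (0.018 and 0.0027). With the length and GC trends removed, both of these differences changed sign and neither was called. They were then 0.18 for TIN minus GLAD (0.28) and −0.022 for the double mutant minus TIN (0.90). Against wild type in normoxia Deptor was higher by 1.84 ± 0.12 in GLAD (7.7e-10), 0.91 ± 0.12 in TIN (3.8e-06) and 1.21 ± 0.12 in the double mutant (1.5e-07).

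Tsc1 encodes hamartin, which stabilises the TSC complex, and Tsc2 encodes tuberin, its GTPase-activating subunit that acts on Rheb. Tsc1 (ENSMUSG00000026812) lies at chr2:28641228-28691167 on the plus strand, and Tsc2 (ENSMUSG00000002496) at chr17:24595816-24632630 on the minus strand of GRCm38. The exons of Tsc2 overlap those of the antisense gene Pkd1 over 693 bases (7.2% of their length), and reads in that overlap cannot be told apart without the strand setting. Tsc1 in normoxia stood at 80.7 and 75.1 CPM in wild type, 81.5 and 81.2 CPM in GLAD, 117 and 118 CPM in TIN, and 108 and 101 CPM in the double mutant. TIN and the double mutant lay above the other 2 groups. In hypoxia Tsc1 stood at 79.6 and 85.1 CPM in GLAD, 85.8 and 94.3 CPM in TIN, and 150.3 and 129.5 CPM in the double mutant. The double mutant was the highest group and its libraries were the farthest apart, by 0.21 on the log2 scale.

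Tsc2 in normoxia stood at 82.4 and 105 CPM in wild type, 73.1 and 69.1 CPM in GLAD, 114 and 109.8 CPM in TIN, and 112 and 111 CPM in the double mutant. Its hypoxia level was 62.3 and 69.5 CPM in GLAD, 127 and 129 CPM in TIN, and 77.7 and 80.7 CPM in the double mutant. TIN in hypoxia was the highest group and GLAD the lowest at both oxygen levels.

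Under hypoxia Tsc1 fell by 0.38 ± 0.08 in TIN (log2, adjusted p = 8.2e-04) and rose by 0.42 ± 0.08 in the double mutant (3.5e-04). With the length and GC trends removed the fall in TIN was 0.24 (0.0055). In GLAD the log2 difference was 0.02 ± 0.08 (0.88). Tsc2 fell by 0.49 ± 0.09 in the double mutant (2.2e-04) and was at −0.11 ± 0.09 in GLAD (0.35) and 0.20 ± 0.09 in TIN (0.086), the last of which passed without wild-type library A (0.011) or B (0.012). With the length and GC trends removed both passed, at −0.21 in GLAD (0.048) and 0.24 in TIN (0.028). The double mutant and TIN, which share the Ala105Thr substitution, differed in the hypoxia effect by 0.80 ± 0.12 for Tsc1 (4.3e-05) and by −0.68 ± 0.13 for Tsc2 (5.1e-04). Tsc1 also differed between TIN and GLAD by −0.40 ± 0.12 (0.014), which was not called without GLAD library B of hypoxia (−0.35, 0.065), without TIN library A of hypoxia (−0.33, 0.085) or with the length and GC trends removed (−0.12, 0.36). It differed between the double mutant and GLAD by 0.40 ± 0.12 (0.029), which was not called with no filter on low values (0.072) or without the variance trend (0.083). The call was also lost without GLAD library A or B of normoxia or GLAD library A of hypoxia. The same held without double-mutant library B of normoxia or double-mutant library A of hypoxia. Leave-one-out values ran from 0.29 to 0.51. For Tsc2 the difference was 0.31 ± 0.13 for TIN minus GLAD (0.082) and −0.38 ± 0.13 for the double mutant minus GLAD (0.065). Both were called without wild-type library A (0.0088 and 0.0040) and without wild-type library B (0.0089 and 0.0041), and with the length and GC trends removed (0.0099 and 0.039).

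Against wild type in normoxia, Tsc1 was higher in TIN by 0.59 ± 0.08 (7.5e-06) and in the double mutant by 0.42 ± 0.08 (3.2e-04), and was at 0.06 ± 0.08 in GLAD (0.55). The value for the double mutant was 0.23 with the length and GC trends removed (0.0074). Tsc2 was lower in GLAD, by a drop of 0.38 ± 0.09 (0.0021), or 0.21 without wild-type library B (0.030). It was higher in TIN by 0.27 ± 0.09 (0.020) and in the double mutant by 0.26 ± 0.09 (0.025). Both calls were lost when only the compared groups were fitted (0.14 and 0.15). They were also lost with no filter on low values (0.063 and 0.074) and without the variance trend (0.058 and 0.066). Without wild-type library A both were lost too, and the values were 0.09. Without wild-type library B they were 0.44 and 0.43, and with the length and GC trends removed the value for the double mutant was 0.14 (0.18). The call for TIN was also lost without either TIN library of normoxia (0.10 and 0.052), and that for the double mutant without either of its normoxia libraries (0.099 and 0.079). The ratio of Tsc2 to Tsc1 per exon length was 1.20 and 1.14 in TIN in normoxia and 1.82 and 1.69 in hypoxia. In the double mutant it was 1.27 and 1.35 in normoxia and 0.636 and 0.766 in hypoxia. GLAD held 1.10 and 1.05 in normoxia and 0.964 and 1.00 in hypoxia, and the wild-type libraries held 1.26 and 1.71. The TIN and double-mutant ratios thus lay close together in normoxia and on either side of 1 in hypoxia. Exon length covers all annotated exons of a gene, so the position relative to 1 depends on that choice.

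Counted by comparison and leaving out Ddit4l, 3 of 7 members were called under hypoxia in GLAD, 2 higher (Ddit4 and Sesn3) and 1 lower (Deptor). Among all 16157 genes tested, 48.1% were called in that comparison (22.1% higher and 26% lower), and the members' share lay near it. In TIN 6 members were called, 2 higher (Ddit4 and Sesn2) and 4 lower (Sesn1, Sesn3, Deptor and Tsc1), against 53.9% of all genes (25.6% higher and 28.3% lower). In the double mutant 7 were called, 3 higher (Ddit4, Sesn2 and Tsc1) and 4 lower (Sesn1, Sesn3, Deptor and Tsc2), against 56.1% of all genes (25.8% higher and 30.2% lower). On average over the 3 mutants 2 rose, Ddit4 by 2.66 ± 0.04 and Sesn2 by 0.64 ± 0.05, and 4 fell, against 67.5% of all genes called (30.6% higher and 37% lower). Those that fell were Deptor by 0.95 ± 0.07, Sesn1 by 0.55 ± 0.05, Sesn3 by 0.25 ± 0.05 and Tsc2 by 0.13 ± 0.05 (adjusted p = 0.035). The call on Tsc2 was lost with no filter on low values (0.089), with median-of-ratios scaling (0.067) and without the variance trend (0.083). It was also lost when any of 9 single libraries was left out. Leave-one-out values of the Tsc2 change ran from −0.16 to −0.11. The median log2 change of these 7 was 0.013 in GLAD, −0.38 in TIN and −0.28 in the double mutant, beside medians of −0.038, −0.0057 and −0.047 over all genes tested.

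**Figure D3:**
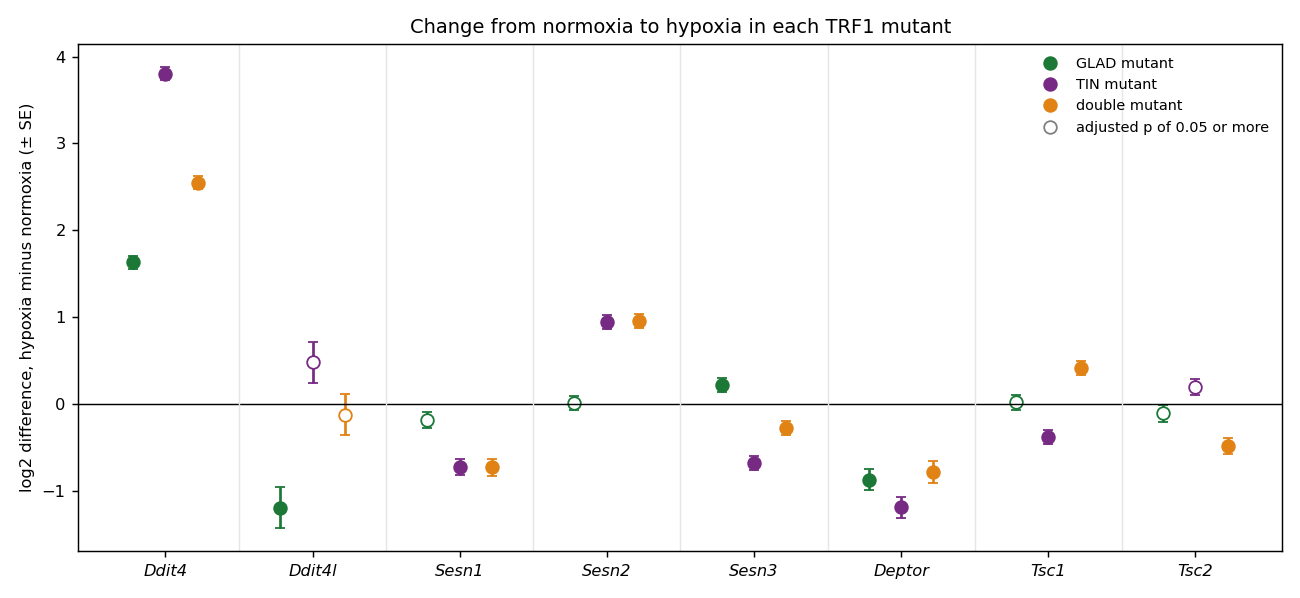
Log2 difference, hypoxia minus normoxia, of each of the 8 genes in the GLAD (green), TIN (purple) and double (orange) mutants, with standard errors from the filtered fit over 14 libraries. Open points have an adjusted p of 0.05 or more in that fit. This includes Ddit4l, which passed the filter through its GLAD libraries alone. Ddit4 is positive in all 3 mutants (1.63, 3.80 and 2.55) and Deptor negative in all 3 (−0.87, −1.19 and −0.78).

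The hypoxia effect itself differed between TIN and GLAD in 5 of the 7 (Ddit4, Sesn1, Sesn2, Sesn3 and Tsc1), against 33.9% of all genes tested. Between the double mutant and GLAD the same 5 genes were called, against 14.6% of all genes. That count was 3 without GLAD library A of normoxia and 3 without double-mutant library A of hypoxia. Between the double mutant and TIN 4 were called (Ddit4, Sesn3, Tsc1 and Tsc2), against 42.8%. The comparisons of TIN and of the double mutant with GLAD share the GLAD libraries, so their lists are not independent of each other.

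In normoxia, against wild type, 6 of the 7 were called in GLAD (5 higher and 1 lower) where 55.2% of all genes were called (26.9% higher and 28.3% lower). In TIN all 7 were called (5 higher and 2 lower) against 60.2% of all genes (31.4% higher and 28.8% lower), and 5 were called when only the compared groups were fitted. In the double mutant 6 were called, all higher, against 56.9% of all genes (28.2% higher and 28.6% lower). Sesn1, Sesn3 and Deptor were higher than wild type in all 3 mutants, and Ddit4 and Sesn2 were higher in GLAD and lower in TIN. Tsc2 was lower in GLAD and higher in the other 2 mutants. The Ddit4 call in TIN and the Tsc2 calls in TIN and the double mutant were lost under alternatives given above. The 3 comparisons with wild type share the wild-type libraries. Among the mutants, all 7 differed between TIN and GLAD in normoxia (4 higher and 3 lower in TIN), against 51.8% of all genes (27.7% higher and 24.1% lower). The largest were Ddit4 (−1.47 ± 0.08 on the log2 scale) and Sesn2 (−1.32 ± 0.08). That for Sesn3, 0.24 ± 0.08 (0.018), was not called without any single one of the 4 libraries compared (adjusted p 0.055 to 0.098). Between the double mutant and GLAD 6 were called (3 higher and 3 lower) against 35.7% of all genes (18.5% higher and 17.2% lower), Sesn1 being the exception. The lower Ddit4 level in the double mutant, a drop of 0.26 ± 0.08 (0.013), was not called without GLAD library A or B (0.078 and 0.057) or double-mutant library A (0.12). Between the double mutant and TIN 4 were called against 48.7%, of which Ddit4 (1.22 ± 0.08, 2.0e-10) and Sesn2 (0.93 ± 0.08, 2.4e-08) were the largest. The other 2, Sesn1 (−0.24, 0.043) and Deptor (0.30, 0.047), were both lost without any single GLAD or TIN library or double-mutant library B of normoxia, with CPM as deposited, with no filter and without the variance trend.

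**Figure D4:**
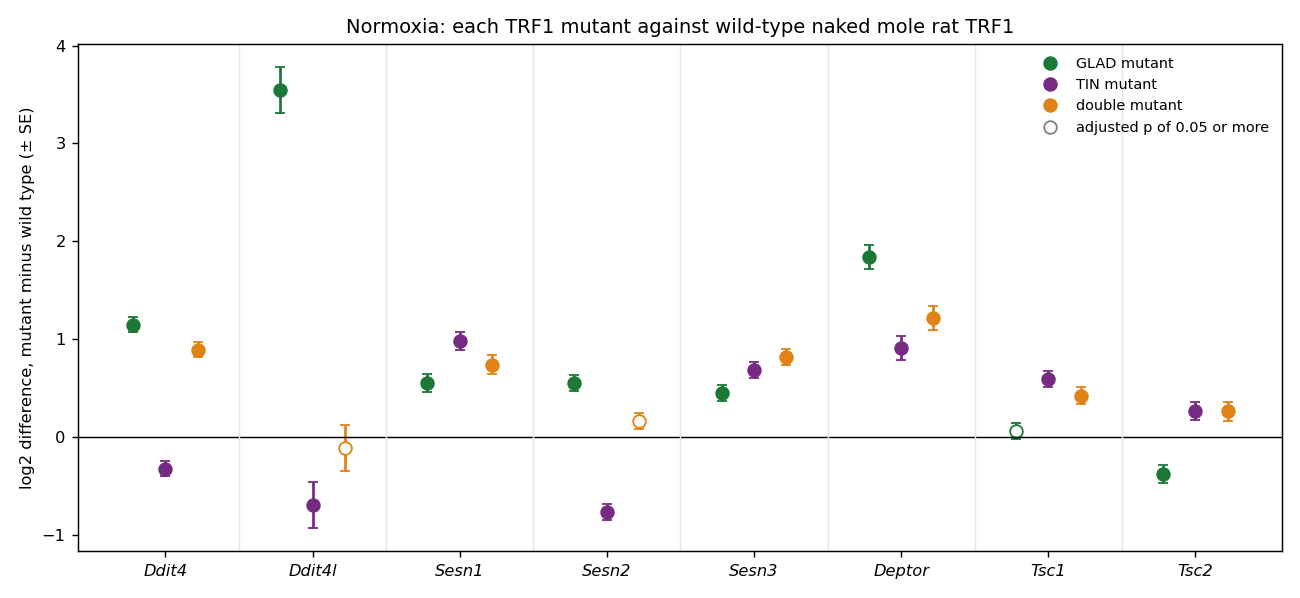
Log2 difference in normoxia, mutant minus wild type, of the 8 genes in the GLAD (green), TIN (purple) and double (orange) mutants with standard errors; open points have an adjusted p of 0.05 or more in the filtered fit, Ddit4l included. Deptor is positive in all 3 mutants (1.84, 0.91 and 1.21), while Ddit4 is positive in GLAD and the double mutant (1.15 and 0.89) and negative in TIN (−0.33).

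The rest of the pathway was read from lists of genes by role, each set beside the 30.6% of all genes that rose and the 37% that fell on average over the mutants. The other TSC and Rheb genes all fell on average over the 3 mutants, at a median of −0.43 against −0.038 over all genes tested. They were Tbc1d7, the third TSC subunit (0.69 ± 0.07 lower), Rhebl1 (0.43 ± 0.09 lower) and Rheb (0.18 ± 0.04 lower). Of 4 mTORC1 core genes (median −0.33) 3 fell and none rose, namely Akt1s1, which encodes the inhibitor PRAS40 (0.73 ± 0.05 lower), Rptor, which encodes the substrate-binding subunit RAPTOR (0.54 ± 0.04 lower), and Mtor (0.13 ± 0.04 lower). Of 6 genes of mTORC2 and its assembly (median −0.11) 2 rose and 3 fell, with Rictor 0.50 ± 0.06 higher and Telo2, an assembly factor, 0.71 ± 0.07 lower.

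Downstream of the sestrins, 1 of 11 GATOR and KICSTOR genes rose and 7 fell (median −0.19). Seh1l, a GATOR2 subunit that also belongs to the nuclear pore, rose by 1.30 ± 0.05, while Nprl3 of GATOR1 was 0.69 ± 0.07 lower. Of 12 Rag, Ragulator and folliculin genes (median −0.23) 3 rose and 8 fell, and the Rag GTPase genes moved apart, with Rragb 1.50 ± 0.10 lower and Rragd 0.92 ± 0.11 higher. Of 7 nutrient sensor and transporter genes 4 rose and 1 fell (median 0.33). The leucine transporter gene Slc7a5 was 0.74 ± 0.05 higher, Bmt2, which encodes the methionine sensor SAMTOR, was 0.72 ± 0.09 higher, and Castor2, of the CASTOR arginine sensor family, was 0.43 ± 0.05 lower.

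On the energy and growth factor arms, 4 of 10 AMPK and LKB1 genes rose and 4 fell (median 0.081). Prkab2, an AMPK beta subunit, rose by 1.87 ± 0.07, Prkag2, a gamma subunit, was 0.99 ± 0.14 lower, and the kinase gene Camkk2 was 0.79 ± 0.05 lower. Of 11 PI3K and AKT genes (median −0.25) 2 rose and 7 fell, with Irs1, the insulin receptor substrate, 0.70 ± 0.05 lower and Akt1 0.33 ± 0.04 lower. The average hides a difference between mutants. In GLAD 4 rose and 4 fell (median −0.016), in TIN 0 rose and 8 fell (−0.42). In the double mutant 2 rose and 5 fell (0.098). Over all genes tested, 22.1% rose and 26% fell in GLAD, 25.6% and 28.3% in TIN, and 25.8% and 30.2% in the double mutant. Of 13 genes of mTORC1 outputs 4 rose and 6 fell (median −0.075). Among those that rose, Eif4ebp1, which encodes the translation repressor 4E-BP1, rose by 1.07 ± 0.07, Ulk1, the autophagy kinase, by 0.74 ± 0.05, and Lpin1 by 1.24 ± 0.07. Lpin1 rose by 2.33 ± 0.13 in the double mutant, beside 0.65 ± 0.13 in GLAD and 0.74 ± 0.13 in TIN.

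**Figure D5:**
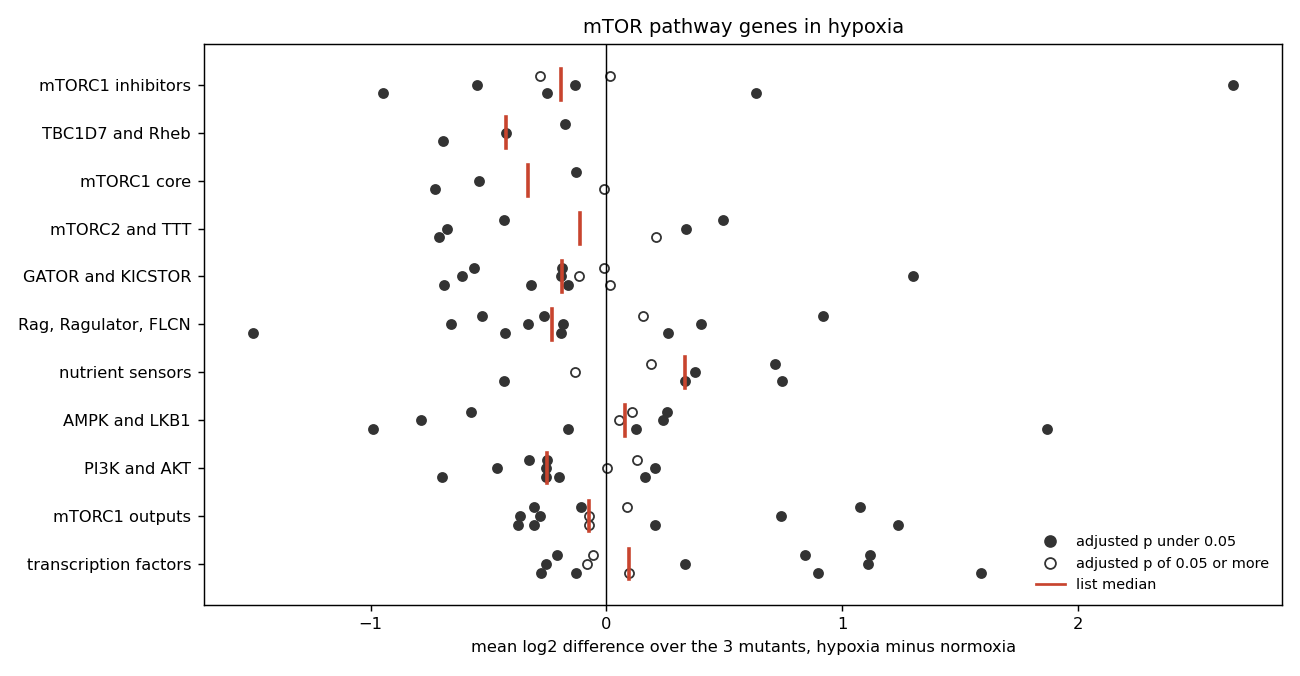
Mean log2 difference over the 3 mutants, hypoxia minus normoxia, for each gene of 11 lists of the mTOR pathway; filled points have an adjusted p under 0.05, open points 0.05 or more, and red bars are list medians. The inhibitor list spans Deptor at −0.95 to Ddit4 at 2.66, with a median of −0.19 (−0.13 without Ddit4l) beside −0.038 over all genes tested.

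The list of regulators upstream of these genes held transcription factors and cofactors together with Mdm2, which encodes the p53 ubiquitin ligase, and its genes changed in different directions. Of 13, 6 rose and 4 fell on average (median 0.097). By mutant, 7 rose and 1 fell in GLAD, beside 22.1% and 26% of all genes tested. In TIN 5 rose and 7 fell, beside 25.6% and 28.3%, and in the double mutant 6 and 2, beside 25.8% and 30.2%. Atf4 rose by 1.37 ± 0.10 in TIN, 0.76 ± 0.10 in GLAD and 0.56 ± 0.10 in the double mutant, and Ddit3, which encodes the stress factor CHOP, by 2.04 ± 0.09, 1.28 ± 0.09 and 1.44 ± 0.09. Foxo3 rose by 1.06 ± 0.09 in TIN, 1.24 ± 0.09 in GLAD and 1.04 ± 0.09 in the double mutant, while Sesn3, its known target, fell in TIN and the double mutant. Mdm2, itself a p53 target, rose most in the double mutant (1.62 ± 0.07, beside 0.48 ± 0.07 in TIN and 0.44 ± 0.07 in GLAD). Hif1a, which encodes the oxygen-regulated HIF-1 subunit, rose in GLAD (0.33 ± 0.13, 0.045) and the double mutant (0.51 ± 0.13) and fell by 0.55 ± 0.13 in TIN, where Ddit4 rose most. Epas1, which encodes the related HIF-2 subunit, was higher than wild type in normoxia by 3.54 ± 0.16 in TIN, 1.34 ± 0.16 in GLAD and 1.59 ± 0.16 in the double mutant. In hypoxia it fell by 0.60 ± 0.16 in TIN (0.0042). Protein levels and activity of these regulators were not measured here, and their part in the changes of the members was not tested.

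The genes whose profile was most like each member's were found by Pearson's r over the 7 group means of log2(CPM + 0.5). For Ddit4 they were Has2 (r = 0.995), R3hcc1l (0.985) and Alas1 (0.985), and Has2, the hyaluronan synthase gene, ranged from 3.31 to 18.1 CPM over the groups. For Ddit4l they were Gria3 (0.986), Ptp4a3 (0.970) and Sfrp2 (0.966), and Gria3, a glutamate receptor gene, ranged from 0.0497 to 23.2 CPM. For Sesn1 they were Slc25a24 (0.981), Prkar2b (0.977) and Dhx30 (0.969), and for Sesn2 Cda (0.970), Acad11 (0.968) and Scmh1 (0.967). Sesn3 was closest to 4930470G03Rik (0.979), Deptor to Atxn7l3b (0.994), Tsc1 to Lsm14a (0.982) and Tsc2 to Hmox2 (0.992). No member was among the 3 nearest genes of another. Each r rests on 7 points and was chosen for being among the highest over the genes compared (11957, or 11958 for Ddit4l), so it is a description with no test.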

How the data were processed

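Bulk RNA sequencing of 14 libraries was analysed. The medium was DEM with 10% fetal calf serum, and TruSeq RNA libraries were run on a NovaSeq instrument, per the labels' protocols. STAR, HTSeq, GRCm38.p4 and mm10 are named in the submitters' processing notes. Versions, annotation release and strand setting are not given in the sources used here. The authors deposited CPM for 52636 genes (52403 with a symbol). Low values followed a grid (99.6% to 100% of distinct values under 100 CPM, 59.6% to 75.1% by chance) that gave the depth, 0.0665 to 0.0839 CPM per read. Because values are rounded to steps of 0.050 CPM, they are not whole multiples of 1 read, so the reads given are estimates and the count tests of edgeR and DESeq2 were not run.

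CPM were scaled by TMM (trims of 30% and 5%), and log2(CPM + 0.5) was fitted with limma 3.58.1 in R 4.3.3 as 7 group means (7 residual and 10.9 prior degrees of freedom, variance trend). Of 32273 genes above 0, 16157 reached 1 CPM in 2 or more libraries and were tested. The 13 comparisons were Benjamini-Hochberg adjusted one by one, and a gene was called at adjusted p under 0.05. Errors after ± are standard errors. Fold changes are on the log2(CPM + 0.5) scale, which understates changes of low genes. The script was tested on simulated data. Members, lists and comparisons were chosen with earlier results of these data known. Named from each list were up to 3 called genes with the largest mean hypoxia effect, any gene of the TSC, hypoxia-check and upstream regulator lists that bears on a sentence, and, per member, the 3 most correlated genes with a mean of at least 5 CPM. Gene positions and exon lengths are from GENCODE and promoters from RefSeq, which held 7 of the 8 members.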

Additional observations from a re-analysis of the deposited data

Results flagged for a closer look

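In 16 cases the hypoxia effect of a member differed between 2 mutants by the test of the difference itself (limma, adjusted p under 0.05). The 16 include Ddit4l from the filtered fit. Over all genes tested, 33.9% were called for TIN minus GLAD, 14.6% for the double mutant minus GLAD and 42.8% for the double mutant minus TIN. For Ddit4 it was higher in TIN than in GLAD by 2.17 on the log2 scale, higher in the double mutant than in GLAD by 0.92, and lower in the double mutant than in TIN (−1.26). For Ddit4l it was higher than in GLAD by 1.67 in TIN and by 1.07 in the double mutant, where the gene had under 10 reads per library. Ddit4l passed the filter on low values through GLAD alone, and with no filter the adjusted p of these was 0.010 and 0.11. For Sesn1 the effect was lower than in GLAD in TIN and in the double mutant (both −0.54), and for Sesn2 it was higher than in GLAD in both (0.93 and 0.94). For Sesn3 it was lower than in GLAD in TIN (−0.90) and the double mutant (−0.50), and higher in the double mutant than in TIN by 0.40. For Tsc1 the effect in TIN was below that in GLAD (−0.40), and that in the double mutant was above GLAD by 0.40 and above TIN by 0.80. For Tsc2 the effect in the double mutant was below that in TIN (−0.68), the opposite sign to Tsc1.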

How the results depend on the processing

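The 104 log2 differences of single members gave 2576 values under the alternatives, of which 2388 kept direction and side of the threshold, 117 lost the call, 42 gained it and 29 changed sign. These counts of members include Ddit4l, which passed the filter through GLAD alone. Members called between the double mutant and TIN in normoxia numbered 5, but 2 with no filter on low values, 3 with CPM as deposited, 3 without the variance trend and 2 to 5 in leave-one-out fits. For TIN against wild type 8 became 5 when only the compared groups were fitted. For the difference of hypoxia effects between the double mutant and GLAD, 6 members became 3 to 7 in leave-one-out fits, and 2354 genes over all became 1463 to 3607, or 3613 without both wild-type libraries, an alternative chosen after seeing the data. Between the double mutant and GLAD in normoxia 5764 genes became 3838 to 7198. The cause was not tested. With CPM as deposited the sign changed for Sesn2 and Tsc1 in GLAD hypoxia (−0.021 and −0.018), Tsc1 on average (−0.016), Sesn2 for double minus TIN in hypoxia effect (−0.021) and Tsc2 for double minus TIN in normoxia (0.0041, and 0.037 with median-of-ratios scaling). With the length and GC trends removed it changed for Sesn2 (−0.017) and Tsc1 (−0.12) in GLAD hypoxia, Tsc1 on average (−0.014) and in GLAD against wild type (−0.12). In hypoxia effects it also changed for Deptor in TIN minus GLAD (0.18) and, in double minus TIN, for Sesn1 (0.018), Deptor (−0.022) and Sesn3 (−0.026), the last being the one called value that reversed. Leave-one-out fits gave −0.064 to 0.091 for Sesn2 and −0.031 to 0.066 for Tsc1 in GLAD hypoxia, −0.019 to 0.052 for Tsc1 on average, −0.10 to 0.089 for Sesn1 and −0.060 to 0.084 for Sesn2 in double minus TIN hypoxia effects, −0.032 to 0.019 for Tsc2 in double minus TIN and −0.43 to 0.20 for Ddit4l in double minus wild type. Where a lone library was left, it was assumed to vary like the other groups. Deviations from the group means correlated little between libraries of the same letter (3 of 21 group pairs with r above 0.1, range −0.096 to 0.16). The highest r was that of GLAD in normoxia with GLAD in hypoxia. Small values of r cannot exclude that the letters pair the libraries. With the letters as a replicate block, genes called for the average hypoxia effect were 10996 against 10912. The members called between the double mutant and TIN in normoxia were then 4, Ddit4l being lost (0.053). The planned edgeR and DESeq2 fits were not run, because the deposited CPM are rounded and not whole multiples of 1 read. Depth limits Ddit4l, which had under 12 reads per library outside GLAD and whose calls among those groups changed with the pseudocount or the filter.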
